A study of Homo sapiens with 3 samples.

Results

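PRRC2A, PRRC2B and PRRC2C form the PRRC2 family of proline-rich coiled-coil proteins, and their transcripts carried 464 of the 388807 MATR3 crosslink clusters of the series. The members are all clusters whose gene name is one of the 3 paralogs. PRRC2A had 30 clusters, PRRC2B 284 and PRRC2C 150, summed over 3 libraries. PRRC2B was chosen by its number of reads in these libraries, and PRRC2A and PRRC2C as its paralogs by name. Read levels are therefore given as a description with no test. The libraries are 3 biological replicates of PAR-CLIP with an antibody against MATR3 (Matrin-3), from wild-type HEK293 cells with no treatment named. HEK293 is an established human embryonic kidney line. The 3 replicates form 1 group, with no control antibody, knockout or input library, so paralogs were compared with each other inside each library. The RNA-seq data that the design names were not analysed here, and RNA abundance of the paralogs was not measured.

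MATR3 is an abundant RNA-binding protein of the nuclear matrix, with RNA recognition motifs and zinc fingers. It binds introns of many pre-mRNAs and is known as a regulator of splicing. PRRC2 proteins are large, mostly disordered cytoplasmic proteins that associate with translation initiation factors and with stress granule proteins. PRRC2A has also been proposed as a reader of N6-methyladenosine in mRNA. In PAR-CLIP, cells take up a photoreactive uridine analogue, and crosslinked uridines are read as C in place of T. A cluster is a stretch of overlapping reads with such T-to-C changes.

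The 3 libraries held 133088, 131679 and 124040 clusters with 1649124, 1506682 and 1532602 reads. No cluster of the family had the same coordinates in 2 replicates, so none is a copied entry. Among clusters of every gene, 69, 65 and 56 had the same coordinates in replicates 1 and 2, 1 and 3, and 2 and 3. Of the marker genes of kidney epithelium, 0 of 6 had a cluster. Of 5 genes known to be expressed in HEK293, 0 had a cluster in all 3 replicates, while VIM had one in 2 and INA in 1. The cluster tables give bound RNA, so these counts do not test the identity of the cells.

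The regions below are shown because they are places in the family where clusters of different replicates met. For PRRC2A and PRRC2C, the region with the highest read count in its weaker replicate is printed, a choice made after the values were seen. The 3 regions in which clusters of all 3 replicates formed a connected chain are printed as well, with 1 in PRRC2B and 2 in PRRC2C. All lie on the plus strand of hg38 and are written 5′ to 3′ in the sense of the transcript. Capitals mark nucleotides covered by clusters of 2 replicates, and lower case marks those covered by 1.
PRRC2A intron 1, chr6:31621400-31621478: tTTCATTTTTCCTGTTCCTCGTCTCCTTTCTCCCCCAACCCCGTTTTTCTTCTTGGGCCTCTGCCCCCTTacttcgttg
PRRC2B intron 1, chr9:131429258-131429492: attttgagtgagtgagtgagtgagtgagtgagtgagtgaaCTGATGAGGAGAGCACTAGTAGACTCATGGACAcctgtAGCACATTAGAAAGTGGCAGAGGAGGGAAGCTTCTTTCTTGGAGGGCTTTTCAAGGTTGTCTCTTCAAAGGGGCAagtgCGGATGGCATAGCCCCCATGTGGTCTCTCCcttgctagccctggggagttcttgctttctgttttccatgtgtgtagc
PRRC2C intron 1, chr1:171505615-171505684: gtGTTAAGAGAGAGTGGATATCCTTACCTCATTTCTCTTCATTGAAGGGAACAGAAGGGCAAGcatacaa
PRRC2C intron 24, chr1:171572477-171572659: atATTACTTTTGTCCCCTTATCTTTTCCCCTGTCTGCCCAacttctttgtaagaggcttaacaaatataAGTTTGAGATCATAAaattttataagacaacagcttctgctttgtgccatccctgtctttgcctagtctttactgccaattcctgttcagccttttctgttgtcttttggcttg
PRRC2C intron 28, chr1:171581977-171582060: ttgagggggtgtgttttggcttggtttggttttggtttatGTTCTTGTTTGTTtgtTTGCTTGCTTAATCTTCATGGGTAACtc

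The PRRC2A region is 79 nt long and made of C and T at 83.5% of its positions. It held 55, 28 and 0 reads in replicates 1, 2 and 3. The 235 nt PRRC2B chain held 67, 30 and 36 reads. In PRRC2C, the 70 nt region of intron 1 held 70, 0 and 45 reads. The chain in intron 24 held 35, 11 and 7 reads over 183 nt, and the chain in intron 28 held 17, 6 and 9 reads over 84 nt. The pyrimidine-rich letters ATCTT, searched on the sense strand because they have been described for MATR3, occurred 1 time in each PRRC2C chain. They did not occur in the other 3 regions. Sense-strand sequence was read from the hg38 genome, and all 464 cluster sequences of the family were identical to it.

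The 3 genes differ in size and in how much of them is intron. PRRC2A (ENSG00000204469.13) lies on chromosome 6 from 31620715 to 31637771 and spans 17057 nt. Its canonical GENCODE transcript has 31 exons, and introns fill 59.5% of the span. PRRC2B (ENSG00000288701.1) lies on chromosome 9 from 131373636 to 131500197 and spans 126562 nt. Its canonical transcript has 32 exons and begins 20450 nt after the gene's start, with introns over 89.4% of the transcript span. No PRRC2B cluster lay in that leading stretch, which held 1 unannotated cluster of 5 reads in replicate 1. PRRC2C (ENSG00000117523.18) lies on chromosome 1 from 171485530 to 171593511 and spans 107982 nt. It has 35 exons, and introns fill 90.2% of its span. All 3 genes are on the plus strand. No cluster sequence of one paralog occurred in the gene of another, so exact matches to another paralog do not blur the assignment.

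All 3 paralogs carried clusters in every replicate, where 40.7% of the 20020 protein-coding gene names did so. PRRC2A had 11, 8 and 11 clusters in replicates 1, 2 and 3. PRRC2B had 96, 86 and 102. PRRC2C had 49, 51 and 50. The ranges of the 3 genes did not overlap. PRRC2B had 9.58 ± 1.05 times as many clusters as PRRC2A and 1.90 ± 0.185 times as many as PRRC2C (SD, n = 3).

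Reads were scaled to 1000000 reads in gene-annotated clusters of the same library. PRRC2B reached 1391, 1269 and 1614 normalised reads, a mean of 1424 ± 175 (SD, n = 3). PRRC2C reached 644, 383 and 525, a mean of 517 ± 130.3. PRRC2A reached 129.8, 168 and 163, a mean of 153 ± 20.6. The order PRRC2B, PRRC2C, PRRC2A held in each replicate, and no 2 ranges overlapped. Among 8158 protein-coding genes with clusters in all 3 replicates, ranked from the highest, PRRC2B was 8th by normalised reads, PRRC2C 193rd and PRRC2A 1865th.

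Per kilobase of gene the order of the paralogs changed. PRRC2A, the shortest gene, had 7.61, 9.84 and 9.53 normalised reads per kilobase, a mean of 9.0 ± 1.21 (SD, n = 3). PRRC2B had 10.99, 10.02 and 12.8, a mean of 11.3 ± 1.38. PRRC2C had 5.96, 3.55 and 4.87, a mean of 4.79 ± 1.21. PRRC2C lay below both others in each replicate, while the highest value of PRRC2A, 9.84, lay just under the lowest of PRRC2B, 10.02. The median of the 8158 genes was 1.55 normalised reads per kilobase, below all 9 values of the family. By this density PRRC2B ranked 374th, PRRC2A 575th and PRRC2C 1521st.

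Inside a library the scaling cancels, so the paralogs were also compared by the log2 ratio of reads per kilobase. PRRC2B minus PRRC2A was 0.53, 0.03 and 0.42, a mean log2 difference of 0.33 ± 0.26 (SD, n = 3), which is of the size of its spread. Over the canonical transcript span, which leaves out the empty leading stretch of PRRC2B, it was 0.58. PRRC2B minus PRRC2C was 1.26 ± 0.33 and positive in 3 of 3 replicates. PRRC2C minus PRRC2A was -0.93 ± 0.56 and negative in 3 of 3. Counted as clusters per kilobase, the distance of PRRC2C from both others was smaller, at 0.69 for PRRC2B minus PRRC2C and -0.32 for PRRC2C minus PRRC2A.

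**Figure D1:**
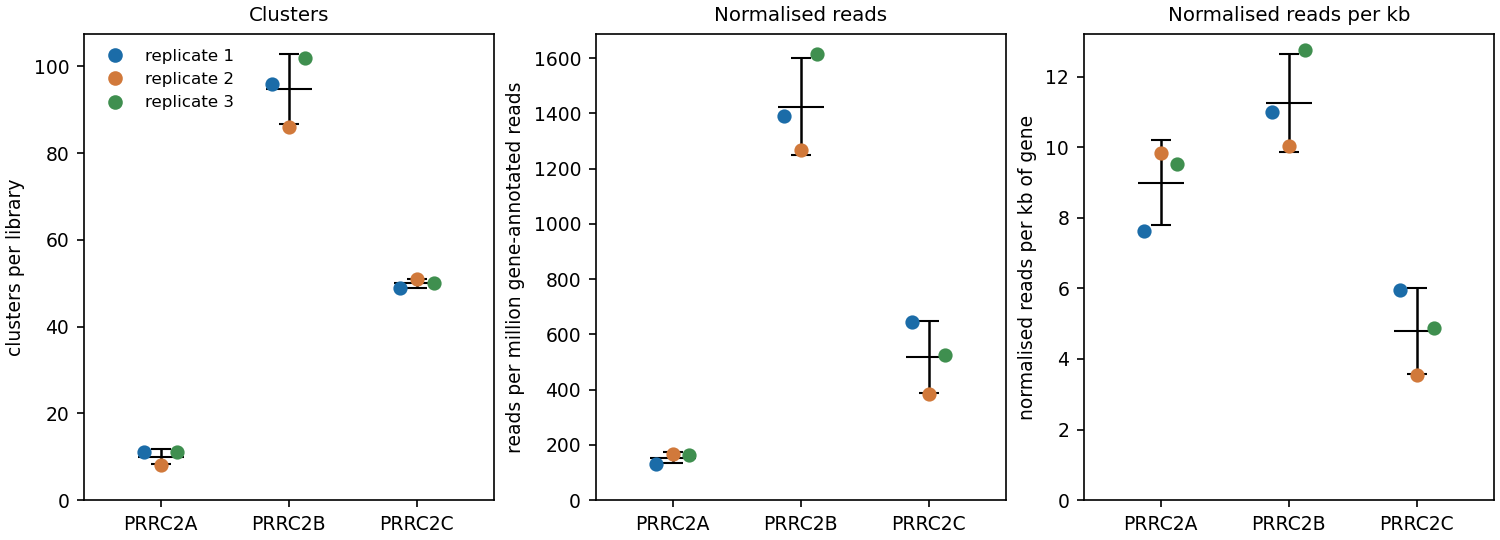
Clusters, normalised reads and normalised reads per kilobase of gene in each of the 3 replicates (points) for PRRC2A, PRRC2B and PRRC2C, with the mean as a bar. PRRC2B is highest in the first 2 panels, and PRRC2C is lowest per kilobase, with a mean of 4.79 normalised reads per kilobase.

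Single clusters carried different shares of each gene's reads. The leading cluster of PRRC2A held 29.3%, 27.4% and 34.4% of its reads in replicates 1, 2 and 3. In PRRC2C the leading cluster held 15.2%, 6.09% and 13.9%. In PRRC2B it held 11.8%, 5.93% and 8.39%. Without its leading clusters, PRRC2C kept 790, 478 and 615 of its 932, 509 and 714 reads, so replicate 1 stayed the highest.

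The leading clusters lay at different places in each replicate, most often in intron 1. In PRRC2A they were at 31621401 to 31621478 with 55 reads in replicate 1, 31621053 to 31621208 with 61 reads in replicate 2 and 31622118 to 31622282 with 76 reads in replicate 3. All 3 were in intron 1. In PRRC2B the leading cluster of replicate 1, at 131460313 to 131460635 in intron 11, held 238 reads and was met by no cluster of another replicate. Those of replicates 2 and 3, at 131412448 to 131412610 with 100 reads and 131420085 to 131420408 with 184 reads, lay in intron 1. In PRRC2C they lay in intron 1 as well. They were at 171498925 to 171499291 with 142 reads, 171500463 to 171500504 with 31 reads and 171498672 to 171498902 with 99 reads.

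**Figure D2:**
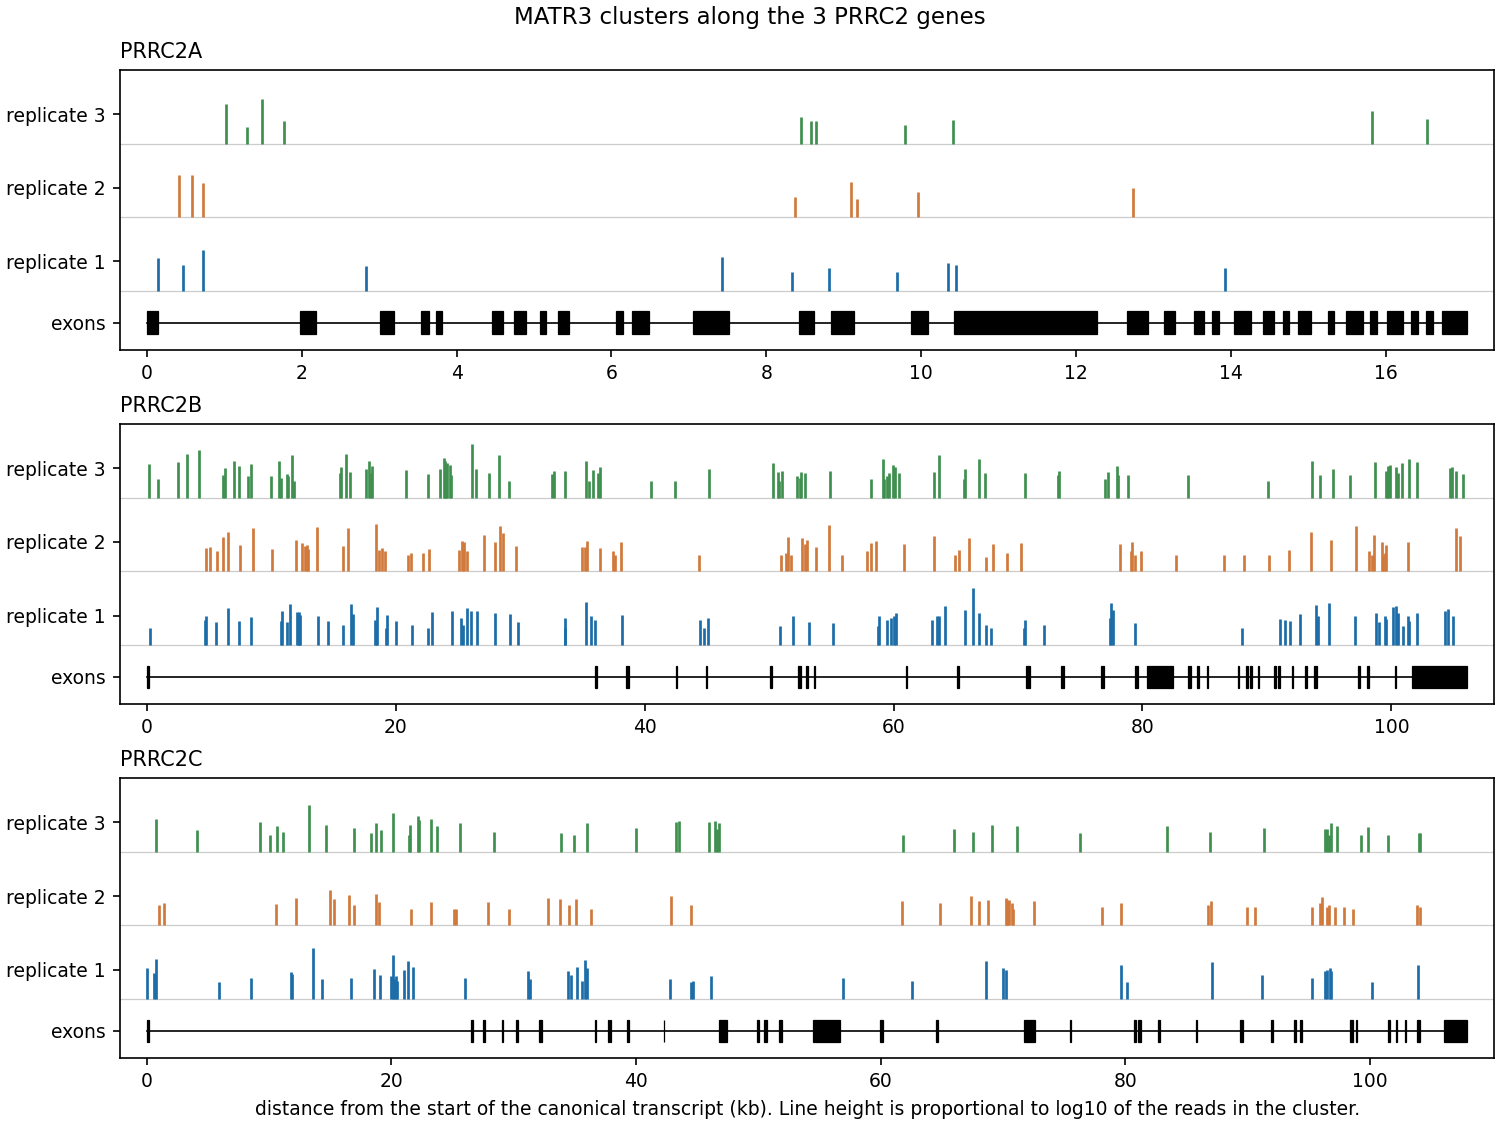
Position of every cluster along each gene, in kilobases from the start of the canonical transcript, with 1 row per replicate, above the exons of the canonical transcript. PRRC2B clusters are spread over the transcript, with line height proportional to log10 of reads, and PRRC2A has an empty stretch after its start region.

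The intron share of clusters was high in PRRC2B and PRRC2C and lower in PRRC2A. Over the whole series, 83.5% of gene-annotated clusters were classed as intron. PRRC2C had 147 of 150 clusters in introns, PRRC2B 259 of 284 and PRRC2A 17 of 30. The intron share of clusters in replicates 1, 2 and 3 was 63.6%, 62.5% and 45.5% in PRRC2A, 90.6%, 94.2% and 89.2% in PRRC2B, and 98.0%, 96.1% and 100% in PRRC2C. PRRC2A lay below both paralogs in each replicate, and PRRC2C lay above PRRC2B in each.

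The intron share of PRRC2B exceeded that of PRRC2A by 34.1 ± 8.65 percentage points (SD, n = 3; exact two-sided sign-flip test, p = 0.25, Benjamini-Hochberg adjusted 0.375 over 12 tests). PRRC2C exceeded PRRC2A by 40.8 ± 11.9 points, with the same exact p and adjusted value. PRRC2B minus PRRC2C was -6.67 ± 4.48 points, again with an exact p of 0.25. With 3 replicates this test cannot go below 0.25, so none of these differences could pass a threshold of 0.05. By deposited class, each had the same sign in 3 of 3 replicates. With clusters classed by their midpoint on the canonical transcript, PRRC2B minus PRRC2C was -3.32 ± 3.45 points (exact two-sided sign-flip test, p = 0.5). Its sign then turned in replicate 2, with 94.2% in PRRC2B and 94.1% in PRRC2C. Introns fill 59.5% of the span of PRRC2A, against 89.4% and 90.2% in PRRC2B and PRRC2C. The part of this in the intron share of clusters was not tested. Per kilobase of intron and of exon, again with clusters placed by midpoint, the difference between the compartments was smaller. PRRC2A had 0.657 ± 0.150 clusters per kilobase of intron and 0.483 ± 0.0836 per kilobase of exon. PRRC2B had 0.924 ± 0.0644 and 0.623 ± 0.178. PRRC2C had 0.493 ± 0.0103 and 0.188 ± 0.0941, the widest ratio of the family. Its exon value rests on 2, 3 and 1 clusters in replicates 1, 2 and 3, some of them deposited as intron.

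The clusters outside introns were of different kinds in the paralogs. In PRRC2A, 6 were classed as coding, 4 as intron-coding, 2 as coding-intron and 1 as lying over the border of 5′ UTR and intron. PRRC2B had 11 clusters in the 3′ UTR, 6 coding-intron, 3 intron-coding, 3 in coding sequence, 1 in the 5′ UTR and 1 at its border with an intron. PRRC2C had 2 in coding sequence and 1 in the 5′ UTR. The 3′ UTR of PRRC2B, 4322 nt long, held 4, 2 and 5 clusters with 98, 96 and 93 reads in replicates 1, 2 and 3. That is 22.1 ± 0.582 reads per kilobase (SD, n = 3), beside 19.1 ± 2.56 in its introns. The 3′ UTRs of PRRC2A and PRRC2C, 188 and 1667 nt long, held 0 clusters in every replicate. The longest coding exon is exon 16 in all 3 canonical transcripts, with 1854 nt in PRRC2A, 2082 nt in PRRC2B and 2259 nt in PRRC2C. It held 0 clusters in PRRC2B and PRRC2C. In PRRC2A, 2 clusters reached over its edge, with 22 reads together.

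Intron 1 is the longest intron of each paralog and took more reads per kilobase than the other introns pooled. This pattern was noticed in these data and is given with no test. Clusters were placed in an intron of the canonical transcript by their midpoint, whatever their deposited class. In PRRC2A, intron 1 is 1831 nt long, 18.0% of all intron length. It had 36.6, 80.8 and 75.9 reads per kilobase in replicates 1, 2 and 3, where the other introns had 6.73, 1.56 and 3.0. It held 54.5%, 91.9% and 84.8% of the reads in introns. In PRRC2B, intron 1 is 35830 nt long, 37.8% of intron length. It had 23.0, 23.5 and 34.6 reads per kilobase against 17.4, 12.1 and 13.5 in the others, and 44.5%, 54.0% and 60.9% of the intron reads. In PRRC2C, intron 1 is 26296 nt long, 27.0% of intron length. It had 17.9, 6.24 and 15.1 reads per kilobase against 5.81, 4.53 and 4.36, and 53.3%, 33.7% and 56.2% of the intron reads. Intron 1 was the denser in all 9 pairs of values, by 27.5 ± 23.2 times in PRRC2A, 1.94 ± 0.623 times in PRRC2B and 2.64 ± 1.11 times in PRRC2C (SD, n = 3). The PRRC2A ratio rests on 13 to 56 reads in its other introns. Single introns were denser than intron 1 by mean in both longer genes. In PRRC2B these were introns 7, 11, 27, 30 and 31, with 29.0 to 52.9 mean reads per kilobase against 27.0. In PRRC2C they were introns 6 and 28, with 15.1 and 15.2 against 13.1.

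**Figure D3:**
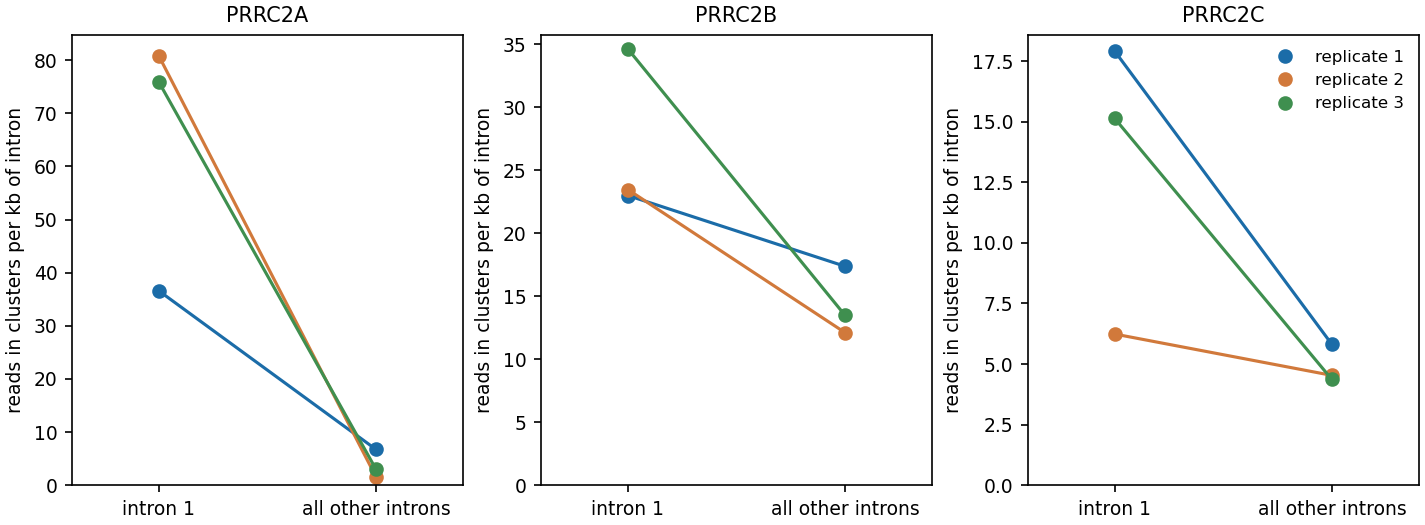
Reads per kilobase in intron 1 and in all other introns together, with a line joining the values of each replicate, by paralog. Intron 1 is higher in each of the 9 pairs, from 36.6 to 80.8 reads per kilobase in PRRC2A.

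Clusters reached most introns of PRRC2B and fewer of the other paralogs. A cluster of any replicate lay in 24 of 31 introns of PRRC2B, 17 of 34 of PRRC2C and 7 of 30 of PRRC2A. Clusters of all 3 replicates lay in 10, 9 and 2 introns of these genes. The introns without a cluster were shorter. Their median length was 524 nt in PRRC2B against 2205 nt in those with one, 863 against 3249 nt in PRRC2C, and 148 against 745 nt in PRRC2A. Cut into 5 equal parts, the PRRC2B transcript span held between 13.8% and 26.4% of clusters in each part on average. PRRC2C held 29.5% in the opening part and 9.38% in the middle one. PRRC2A held 36.7%, 0%, 40.9%, 13.3% and 9.09% from start to end.

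Recurrence was measured as the share of a replicate's clusters that shared at least 1 nucleotide with a cluster of another replicate on the same strand. Over all genes and classes it was 21.2%, and among intron clusters 21.5%. The family had 138 of 464 clusters, or 29.7%, found again in another replicate. The count was 8 of 30 in PRRC2A, 92 of 284 in PRRC2B and 38 of 150 in PRRC2C. By replicate the share was 35.4%, 31.4% and 30.4% in PRRC2B, each above the series as a whole. In PRRC2C it was 24.5%, 21.6% and 30%. In PRRC2A it was 36.4%, 37.5% and 9.09%, where 1 cluster more or less moves the share by at least 9.09 points. Clusters covered 4.69%, 4.84% and 5.02% of PRRC2B, 3.59%, 4.16% and 4.24% of PRRC2A, and 2.82%, 2.33% and 2.18% of PRRC2C. The part of covered length and of reads per cluster in the recurrence was not tested.

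PRRC2B exceeded PRRC2C by 7.05 ± 5.79 points of recurrence, with the same sign in 3 of 3 replicates (SD, n = 3; exact two-sided sign-flip test, p = 0.25, adjusted 0.375). In replicate 3 the difference was 0.39 points, and without replicate 1 it turned to -1.0. An overlap counts in both replicates that share it, so the 3 recurrence values of a paralog are not independent. The sign-flip tests treat them as independent, so their p-values for recurrence are a description only. PRRC2B minus PRRC2A was 4.75 ± 14.6 points, negative in 2 of 3 replicates (exact p = 1). PRRC2C minus PRRC2A was -2.30 ± 20.2 points, negative in 2 of 3 (exact p = 1). Without replicates 1, 2 and 3 in turn, with recurrence counted anew among those kept, PRRC2B minus PRRC2A was 12.9, 10.1 and -15.3 points. PRRC2C minus PRRC2A was 13.9, 7.07 and -22.4 points. The sign of all 3 differences therefore turned with the replicate left out.

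Few places were seen in every replicate. A cluster was found in both other replicates in 3 of 464 cases, or 0.647%, against 2.49% of all clusters. They were 1 in PRRC2B and 2 in PRRC2C, in the chains printed above. Nucleotides covered in 2 replicates numbered 157 in PRRC2A, 1877 in PRRC2B and 662 in PRRC2C. These are 8.31%, 11.4% and 9.11% of the nucleotides covered in any replicate, beside 8.38% over all gene-annotated clusters. No nucleotide of the 3 genes was covered in all 3 replicates, where 0.489% of covered nucleotides were over all gene-annotated clusters. Overlapping clusters joined into 236 regions in PRRC2B, of which 192 came from 1 replicate, 43 from 2 and 1 from 3. PRRC2C had 130 regions, split 112, 16 and 2, and PRRC2A had 26, split 22, 4 and 0.

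The share of reads with a T-to-C change, the mark of crosslinking, was lower in PRRC2A and PRRC2B than over all gene-annotated clusters, where it was 86.1% ± 0.634 (SD, n = 3). PRRC2A had 78.7%, 70.9% and 76.5% in replicates 1, 2 and 3, a mean of 75.3% ± 4.05. PRRC2B had 79.6%, 78.8% and 79.2%, a mean of 79.2% ± 0.390. PRRC2C had 77.3%, 88.6% and 86.0%, a mean of 84.0% ± 5.95. All values of PRRC2A and PRRC2B lay below the lowest replicate of all gene-annotated clusters, 85.3%, while PRRC2C lay on both sides. Family clusters also held more reads than the median cluster of the series. The median reads per cluster were 12, 23 and 10 in PRRC2A, 16, 12 and 14 in PRRC2B and 13, 9 and 10.5 in PRRC2C, against a mean of 8.67 ± 0.577 over all clusters. The part of reads per cluster in the lower shares was not tested.

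Between paralogs, PRRC2B exceeded PRRC2A in T-to-C share by 3.86 ± 3.68 points, positive in 3 of 3 replicates (SD, n = 3; exact two-sided sign-flip test, p = 0.25, adjusted 0.375). PRRC2B minus PRRC2C was -4.75 ± 6.32 points and PRRC2C minus PRRC2A 8.60 ± 9.64 points, each with 1 of 3 replicates of the other sign (exact p = 0.5, adjusted 0.6). In PRRC2A the share differed by class. Its wholly coding clusters had 53.4% ± 5.88 of reads with T-to-C and its intron clusters 83.0% ± 4.30. The coding value rests on 1, 2 and 3 clusters with 28, 30 and 46 reads in replicates 1, 2 and 3. All PRRC2A clusters not classed as intron had 59.3% ± 15.3. Wholly coding clusters of PRRC2B, 1 and 2 with 12 and 16 reads in replicates 1 and 3, averaged 87.5%. Those of PRRC2C, 2 with 16 reads in replicate 2, had 87.5% as well. Each deposited cluster had at least 4 T-to-C reads by estimate, so clusters of few reads cannot show a low share. Whether the low coding share is particular to PRRC2A cannot be told from so few clusters. In intron clusters alone, PRRC2B minus PRRC2A turned to -3.48 points.

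**Figure D4:**
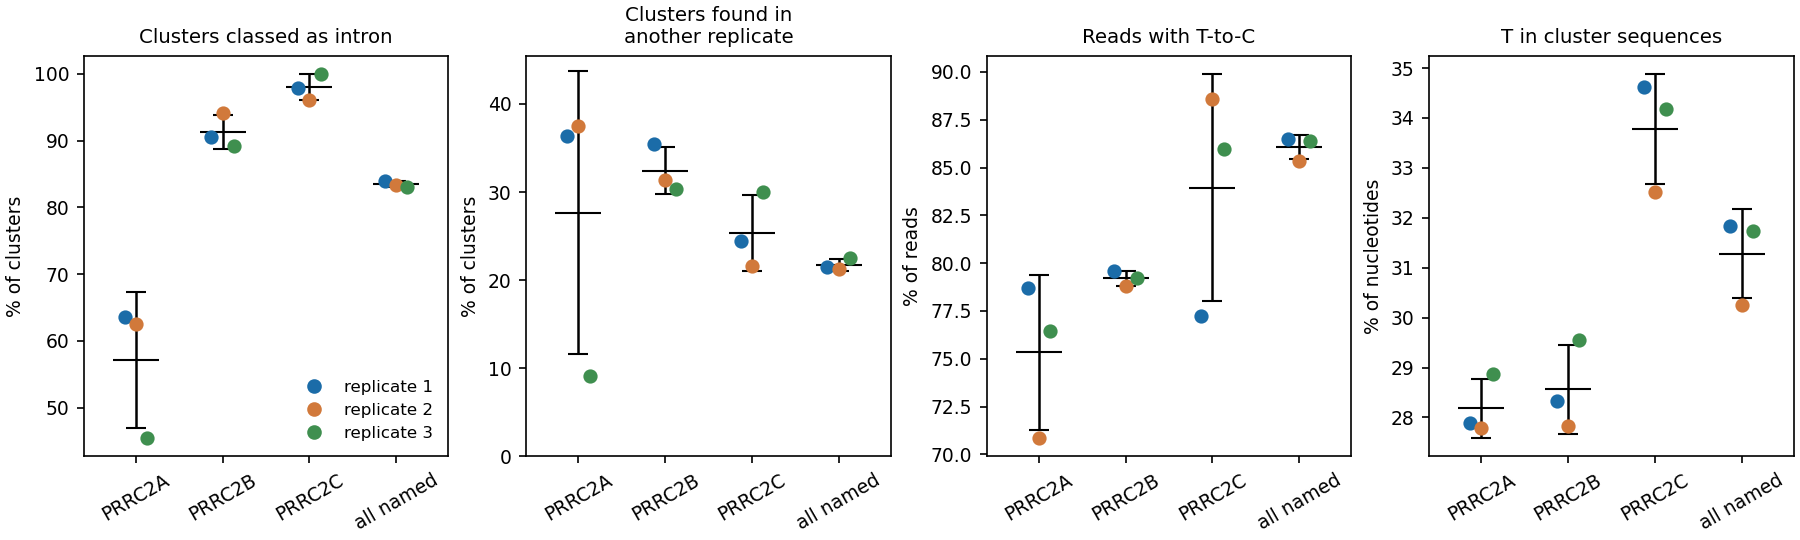
Intron share, recurrence, T-to-C share and T content for each paralog, with 1 point per replicate, the mean as a bar, and the same values for all gene-annotated clusters (all named). Axes of the panels do not all begin at 0. PRRC2A stands apart in intron share, with a mean of 57.2%, and PRRC2C in T content, with a mean of 33.8%. The introns of PRRC2C hold 34.7% T.

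PRRC2C clusters were richer in T than those of its paralogs, as were PRRC2C introns. Cluster sequences held 34.6%, 32.5% and 34.2% T in PRRC2C over replicates 1, 2 and 3. They held 28.3%, 27.8% and 29.5% in PRRC2B, and 27.9%, 27.8% and 28.9% in PRRC2A. The values of PRRC2C lay above all 6 of the others, and those of PRRC2A and PRRC2B overlapped. PRRC2B minus PRRC2C was -5.21 ± 0.942 points and PRRC2C minus PRRC2A 5.59 ± 1.02 points, each with the same sign in 3 of 3 replicates (SD, n = 3; exact two-sided sign-flip test, p = 0.25, adjusted 0.375). PRRC2B minus PRRC2A was 0.38 ± 0.326 points (exact p = 0.25). In intron clusters alone the latter turned to -1.60 points, with 30.7% T in PRRC2A and 29.1% in PRRC2B. The introns of the genes hold 28.7%, 29.9% and 34.7% T.

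For C and T together the order was another. PRRC2A clusters held 60.9% ± 2.85, PRRC2B 52.9% ± 1.87 and PRRC2C 56.4% ± 0.217 (SD, n = 3). Introns of these genes hold 50.1%, 53.2% and 53.0%. PRRC2A clusters, at 61.5%, 63.3% and 57.7%, lay above the introns of their gene in each replicate, and so did PRRC2C clusters, at 56.6%, 56.4% and 56.2%. PRRC2B clusters, at 52.1%, 51.5% and 55.0%, lay on both sides of theirs. These values take in clusters of all classes, and only 17 of 30 PRRC2A clusters were classed as intron. The C and T content of intron clusters alone was not measured, so for PRRC2A this sets unlike sequence side by side. The letters ATCTT occurred in 1, 1 and 1 clusters of PRRC2A, 9, 7 and 13 of PRRC2B and 8, 7 and 7 of PRRC2C. As a share of clusters that is 9.38%, 8.14% and 12.7% in PRRC2B and 16.3%, 13.7% and 14.0% in PRRC2C, beside 9.21% ± 0.376 over all clusters of the series. The letters are also more frequent in PRRC2C introns at large, with 1.88 per kilobase against 1.31 in PRRC2B and 1.18 in PRRC2A. Per kilobase of cluster sequence of all classes, there were 2.79 ± 0.173 in PRRC2C, 1.73 ± 0.611 in PRRC2B and 1.47 ± 0.137 in PRRC2A. A share of clusters also depends on cluster length. Median lengths averaged 42.3 nt in PRRC2C and 48.7 nt in PRRC2B, beside 38.7 nt over all clusters. The part of intron sequence and of cluster length in these shares was not tested. A match of these letters is a description and not a binding site.

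The strand opposite PRRC2A carried unannotated clusters, which the strand opposite its paralogs almost lacked. There were 16, 11 and 14 clusters with 178, 141 and 130 reads on the minus strand of PRRC2A in replicates 1, 2 and 3, against 11, 8 and 11 with 188, 223 and 221 reads in the sense of the gene. Their T-to-C share was 90.4%, 85.8% and 92.3%. PRRC2B had 1, 0 and 0 such clusters and PRRC2C had 0 in each replicate. Those opposite PRRC2A lay no closer than 6.05, 11.2 and 6.07 kilobases to the start of PRRC2A in the 3 replicates. The next protein-coding gene after PRRC2A is BAG6, a chaperone gene on the minus strand, 1256 nt past the end of PRRC2A.

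**Figure D5:**
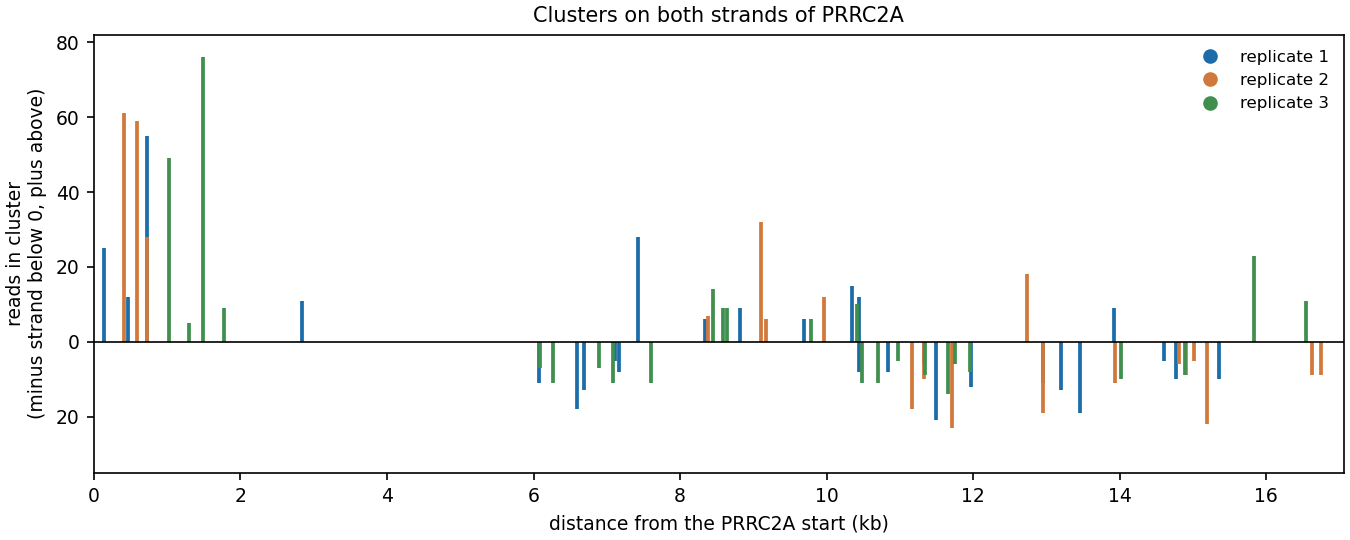
Clusters on the sense (plus) and opposite (minus) strand of PRRC2A by distance from the start of the gene in kilobases, with reads per cluster on the vertical axis. Values of the minus strand are drawn below 0. Sense clusters lie near the start and again further on, and opposite clusters begin 6.05 kilobases from the start.

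BAG6 had 10, 22 and 14 clusters with 84, 394 and 171 reads, and the gap between BAG6 and PRRC2A held 1 cluster on the minus strand in each replicate. On its other side PRRC2A neighbours AIF1, an actin-binding gene of macrophages, which had 0 clusters. PRRC2B lies between PLPP7, with 0 clusters, and POMT1, an O-mannosyltransferase gene with 7, 10 and 9 clusters. PRRC2C lies between FMO4, with 1, 0 and 0 clusters, and MYOCOS, with 0. The small RNAs encoded within the introns of the family also had 0 clusters of their own, SNORA38 and MIR6832 in PRRC2A and SNORD62A and SNORD62B in PRRC2B.

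Genes most like each paralog were found by distance over 4 standardised values, averaged over 3 replicates, namely gene length, clusters per kilobase, reads per kilobase and intron share. For PRRC2A they were PPP1R10 at a distance of 0.138, PCK2 at 0.197 and CNTROB at 0.243. For PRRC2B they were GATAD2A at 0.235, XPO6 at 0.25 and HUWE1 at 0.273. For PRRC2C they were CKAP5 at 0.115, TOP1 at 0.123 and ZNF292 at 0.128. PRRC2B and PRRC2C lay at a distance of 0.792, where PRRC2C was 114th from PRRC2B and PRRC2B 605th from PRRC2C among the 8158 genes. PRRC2A lay farther away, 3039th from PRRC2B at 2.21 and 4732nd from PRRC2C at 2.32.

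Of 58 genes of translation initiation, stress granules and m6A reading, the known partners of PRRC2 proteins and their like, 55 carried a cluster in all 3 replicates, or 94.8% beside 40.7% of all protein-coding names. The list was not matched for expression or gene length, so the share is a description. IGF2BP2, an mRNA-binding protein and m6A reader, had the most normalised reads, 921 ± 201 (SD, n = 3). LARP1, a regulator of mRNAs of the translation machinery, had 887 ± 48.4, and FAM120A, an RNA-binding scaffold, 767 ± 112. All 3 lay below the PRRC2B mean of 1424 and above the PRRC2C mean of 517. The exceptions were subunits of initiation factor 3. EIF3G had a cluster in 2 replicates, EIF3C in 1 and EIF3I in 0. EIF3C has a near-identical copy in the genome, so its value is uncertain.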

How the data were processed

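Labels give 3 biological replicates of MATR3 PAR-CLIP from HEK293, and hg38 comes from the submitters' processing notes. Read, distinct read and conversion counts per cluster are whole counts as deposited by the authors, not normalised. T-to-C shares came from a fraction per cluster, deposited by the authors, multiplied by reads and rounded to whole reads. In some clusters the product was not whole, so T-to-C read counts are estimates. The aligner, cluster caller and annotation release are not given in the sources used here. Each deposited cluster had at least 4 reads, 4 T-to-C reads by this estimate and 2 conversion locations, so weaker binding is not detectable. Reads carry no molecular identifiers and include copies. Python 3.11.15 with pandas 2.3.3 and numpy 2.4.6 was used, with GENCODE release 44 for gene spans and canonical transcripts. Normalised reads are per 1000000 reads in gene-annotated clusters. Measures other than level were compared by exact two-sided sign-flip tests over 3 replicates, Benjamini-Hochberg adjusted over 12 tests, with code tested on simulated data. Alternatives varied overlap, distinct reads, classes, weights and replicates. Members, lists and the ATCTT letters were chosen with earlier results of these data known. Named genes were the 3 paralogs, the 3 most alike genes of each, the nearest protein-coding genes on both sides and the 3 listed genes with most normalised reads. Named clusters were each replicate's leading cluster and the chains of all 3 replicates, and, chosen after values were seen, the strongest region of 2 replicates in PRRC2A and PRRC2C. That of PRRC2B is not reported here.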

Additional observations from a re-analysis of the deposited data

Results flagged for a closer look

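The strand opposite PRRC2A held 13.7 ± 2.52 clusters per replicate (SD, n = 3), all without annotation and outside the main measurement, which used clusters named for the paralogs. They held 178, 141 and 130 reads. Of these clusters, 6 of 16, 4 of 11 and 8 of 14 met a cluster of another replicate. The strand opposite PRRC2B held 1 cluster in replicate 1 and 0 in the other replicates or opposite PRRC2C.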

How the results depend on the processing

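The alternatives gave 110 values over 16 results, of which 94 kept their direction and call or size, 2 moved and 14 changed sign. The mean differences in intron share and the mean log2 ratios of reads per kilobase kept their sign under every alternative run. Clusters per kilobase moved PRRC2B minus PRRC2C to 0.69 and PRRC2C minus PRRC2A to -0.32. Recurrence changed most. PRRC2B minus PRRC2A was -1.11 points in intron clusters and ranged from -15.3 to 12.9 when 1 replicate was left out. PRRC2B minus PRRC2C ranged from -1.0 to 7.05 points. PRRC2C minus PRRC2A was 6.17 with an overlap of 50% of both clusters, 5.31 with clusters of at least 3 distinct reads, and -22.4 to 13.9 with 1 replicate left out. For T-to-C, PRRC2B minus PRRC2A was -3.48 points in intron clusters. As conversion events in percent of covered T, PRRC2B minus PRRC2C was 1.12 and PRRC2C minus PRRC2A -0.98. For T content, PRRC2B minus PRRC2A was -7.96 for C and T together, -3.13 as a median per cluster and -1.60 in introns, and PRRC2C minus PRRC2A was -4.46 for C and T together. The cause of these changes was not tested. The canonical transcript span, an alternative chosen after seeing the data, changed no sign. With 3 replicates no exact test could go below 0.25. The tests between paralogs are paired within each library. Between groups, no paired analysis was possible because the replicates form a single group.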
